A study of Sus scrofa with 2 samples.

Results

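The genes described here are those of the membrane linkage of muscle: integrins, laminins and their basement membrane partners, the dystrophin complex, caveolins and dysferlin, and the ankyrins and spectrins of the membrane skeleton. They were chosen by the wording of the protein that the authors matched to each gene entry, with the symbols ITGB6, ITGB8 and SGCE added, and 72 of the 12535 gene entries with a read met this rule. These were 23 integrin entries, 12 laminin and basement membrane entries, 20 entries of the dystrophin complex, 4 of caveolins and dysferlin, 10 of ankyrins and spectrins, and 3 entries whose protein name holds one of the searched words but that belong to none of these families. The samples were biceps femoris muscle of cloned pigs (Sus scrofa) made by somatic cell nuclear transfer and taken on Day 1 after birth. The RNA of 3 piglets labelled with developmental failure was mixed into 1 pool, the abnormal cloned group. That of 4 piglets without abnormality (3 in the sample labels) was mixed into the other pool, the normal cloned group, and 1 library was sequenced from each pool by poly(dT)-selected mRNA sequencing. Embryonic fibroblasts of a single male large white pig were the donor cells of the 3 abnormal and of 2 normal piglets, and ear fibroblasts taken from another male those of the other 2 normal piglets. The donor and the phenotype therefore cannot be fully told apart.

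A muscle fibre transmits its force sideways to the matrix around it. Integrins, each an alpha and a beta chain, and the dystrophin complex span the fibre membrane and bind laminin, the sheet-forming protein of the basement membrane, on the outside and the actin skeleton on the inside. In skeletal muscle the main pair of integrin chains is alpha-7 with beta-1, and the main laminin carries the alpha-2 chain. Loss of dystrophin, of a sarcoglycan, of the laminin alpha-2 chain or of dysferlin causes muscular dystrophy in people. Spectrins and ankyrins form a lattice under the membrane, and caveolins form the small membrane pits called caveolae.

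The deposited values were, for each gene entry, the number of reads that mapped to it alone and its RPKM, the reads scaled to transcript length and library total, which allows levels of different genes to be compared per length. The abnormal library held 6.38 M reads and the normal library 6.52 M, so that the 3 reads taken as the limit of a count of 0 correspond to 0.470 and 0.460 RPM. Reads and RPKM are given for the abnormal library first. A difference is the log2 of the abnormal RPKM divided by the normal one, with the 95% Wilson interval of the read split in parentheses, which covers counting error only. An entry was called when the two-sided Audic-Claverie test of its reads gave a false discovery rate (FDR) of at most 0.001 over all 12535 entries and the log2 ratio was at least 1 in size. With 1 library per group such a test speaks of the libraries, not of the conditions, and no difference has a replicate check. The median log2 ratio was 0.36 over the entries that reached 10 reads in each library, and mitochondrial transcripts took 36.0% of the reads of the abnormal and 46.1% of the normal library. Muscle fibre genes dominated both libraries, with ACTA1 (skeletal actin) at RPKM 42258 and 37387. In RNA of whole muscle, fewer cells of a type and less RNA per cell cannot be told apart.

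Of the 72 members, 8 were called up-regulated and 0 down-regulated in the abnormal library. The called members were SPTB, ANK2, the entry of DMD nearest the 3′ end of that gene, an entry of UTRN, ITGA5, a nidogen-1-like entry, SDC2 and SNED1, and the largest FDR among them was 1.45e-05. Over all entries 12.0% were called up-regulated and 1.45% down-regulated, so that a count of 8 of 72 was near the share of the whole table. Of the members, 67 had reads in both libraries, 3 had none in the abnormal and 2 none in the normal library, and 48 had at least 10 reads in each. Those 48 included all 8 called members, and the share of all such entries called was 18.2% up and 2.07% down. Their median log2 ratio was 0.44, with 33 higher and 15 lower in the abnormal library, and 26 lay above and 22 below the median of all entries. The choice of scaling bears on these counts. Scaling the libraries to a median log2 ratio of 0 moved every ratio down by 0.36 and changed the calls over all entries from 1510 up-regulated and 182 down-regulated to 812 and 498. With it 4 members were called up-regulated (SPTB, ANK2 and the 3′ entries of DMD and UTRN) and 1 down-regulated, and TMM scaling gave 3 and 3. The log2 ratios below are on the deposited scale, and a value between 0 and 0.36 is below that of the middle entry of the table.

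**Figure D1:**
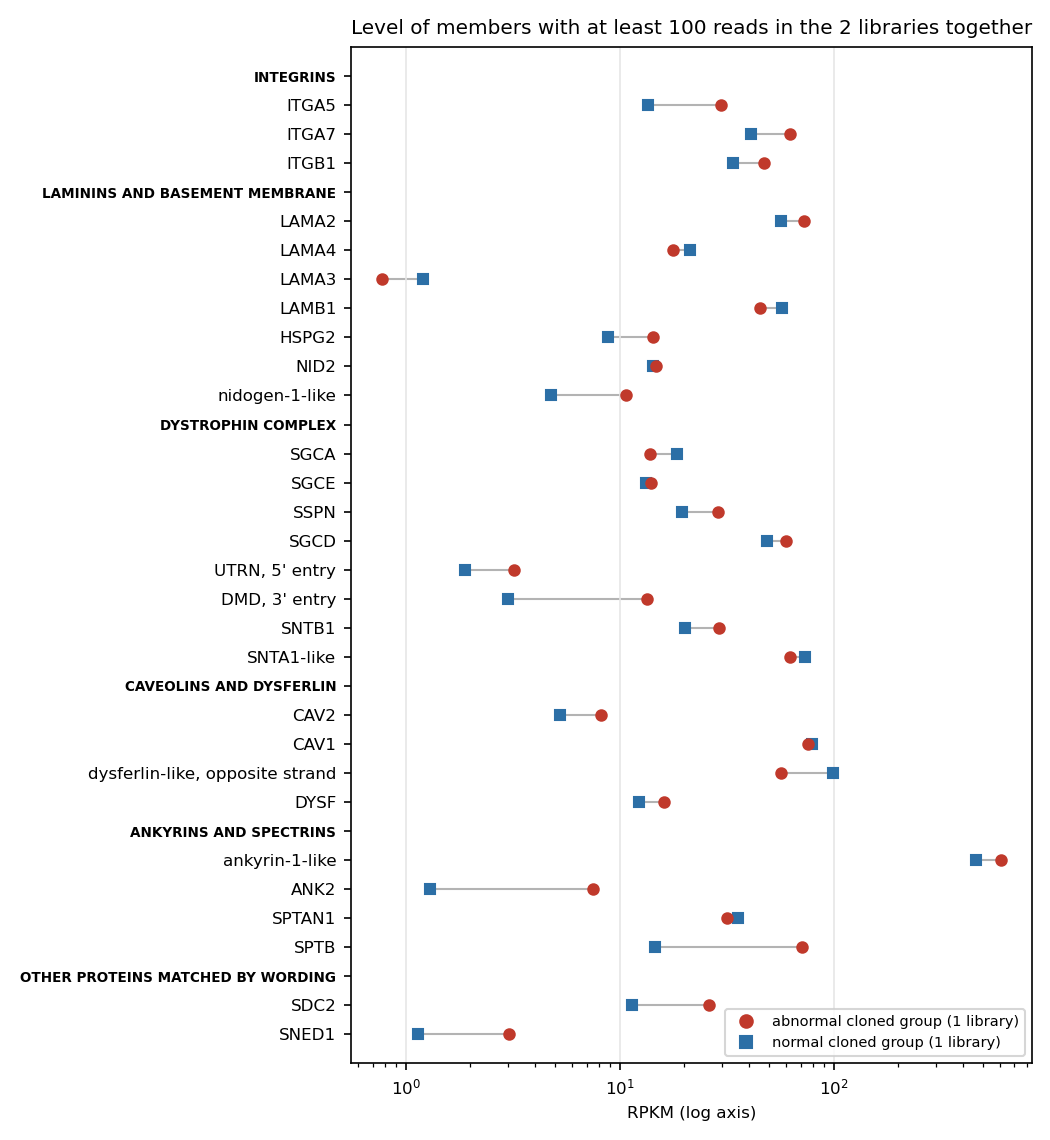
RPKM (horizontal log axis) of 28 members with at least 100 reads in the 2 libraries together, by family. Circles stand for the abnormal and squares for the normal cloned group, 1 library each. SPTB, ANK2 and the 3′ entry of DMD show the widest gaps, while CAV1, NID2 and SGCE lie almost on top of each other.

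The highest level of all members in both libraries was that of a short ankyrin-1-like entry, followed at a distance by CAV1, LAMA2, SPTB, the alpha-1-syntrophin-like entry and ITGA7 in the abnormal library. In the normal library SPTB stood at rank 19 of the 72 RPKM values and in the abnormal library at rank 4. LAMB1 stood at rank 6 in the normal library, ahead of LAMA2, and at rank 11 in the abnormal library. The ranks come from 1 library each and have no error.

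Among the integrin members, the chains that skeletal muscle uses most were also the most abundant. ITGB3, whose protein name the rule missed, had RPKM 31.3 and 49.8, in the normal library above both chains. Its reads covered only 37.1% and 30.8% of the transcript, so that RPKM may not stand for the whole of it. Coverage was 98.0% and 93.7% for ITGA7, and 88.3% and 86.9% for ITGB1. ITGA7, the muscle alpha chain that binds laminin, had 1412 reads against 950 (RPKM 62.3 and 41.0), a log2 ratio of 0.60 (0.48 to 0.72). ITGB1, the beta chain that most alpha chains pair with, had 1145 and 838 reads (RPKM 47.1 and 33.7), a log2 ratio of 0.48 (0.35 to 0.61). Both lay above 0 by more than the counting error and below the size required for a call, and both turned negative (-0.070 and -0.24) when the log2 ratios were corrected for transcript length. The ratio of the RPKM of ITGA7 to that of ITGB1 was 1.32 in the abnormal library against 1.22 in the normal one.

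ITGA5, the alpha chain of the fibronectin receptor, was the called integrin. It had 721 reads against 337, RPKM 29.6 and 13.5, a log2 ratio of 1.13 (0.94 to 1.31) with an FDR of 4.45e-33 by the Audic-Claverie test. The entry lies on chromosome 5 of Sscrofa9 (18143068 to 18165627, minus strand), and reads covered 94.0% of its transcript in the abnormal library against 74.0% in the normal one. Summed over the alpha chain entries, ITGA5 made up 28.7% of the RPKM in the abnormal library against 21.5% in the normal one, while ITGA7 made up 60.4% and 65.0%. The level of ITGA7 was 3.03 times that of ITGA5 in the normal and 2.11 times in the abnormal library. The difference in log2 ratio between ITGA7 and ITGA5 was -0.53.

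Other alpha chains were rare. ITGAV, a chain of the vitronectin receptors, had 59 and 30 reads, a log2 ratio of 1.01 (0.38 to 1.64) that missed the FDR threshold at 0.00724. ITGA4, a chain of the receptor for fibronectin and VCAM-1, had 23 and 7 reads, a log2 ratio of 1.75 (0.56 to 2.93), with an FDR of 0.0147. ITGAL, the leukocyte chain of LFA-1, went the other way with 12 and 26 reads, a log2 ratio of -1.08 (-2.05 to -0.12) and an FDR of 0.0761. ITGB7, a leukocyte beta chain, had 1 read in the abnormal library against 8 in the normal one. ITGAM, the alpha chain of the complement receptor of myeloid cells, had 15 and 10 reads in its main entry. None of these passed the test.

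Leukocyte marker genes beside these integrins summed to RPKM 7.11 in the abnormal library against 9.41 in the normal one over 3 of 5 matched genes. PTPRC, the common leukocyte antigen, had 5 and 22 reads, CD14 21 and 37, and CSF1R 95 and 91, and 0 of the 3 were called. The part of leukocyte content in the integrin values was not tested.

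The collagen-binding chains ITGA10 and ITGA11 had 15 and 12 reads and 12 and 11 reads. ITGA6, a laminin-binding chain, had 18 and 10. ITGB6, the beta chain of an epithelial receptor, had 2 entries that did not go the same way, with 49 and 34 reads in the RefSeq entry and 12 and 17 in the Ensembl entry. Both intervals included 0. The remaining 10 integrin entries, among them ITGA2, ITGA3, ITGA8, ITGA9, ITGAE and ITGB8, had under 10 reads in at least 1 library and at most 11 in any, and no difference was detectable at this depth. Over the 11 integrin members with at least 10 reads in each library the median log2 ratio was 0.56, from -1.08 to 1.13. Of these, 9 were above 0 and 2 below, and 7 above and 4 below the median of all entries. Integrin entries that the rule missed, ITGB3 (-0.67) and ITGA1 (1.58) among them, are not in these counts.

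**Figure D2:**
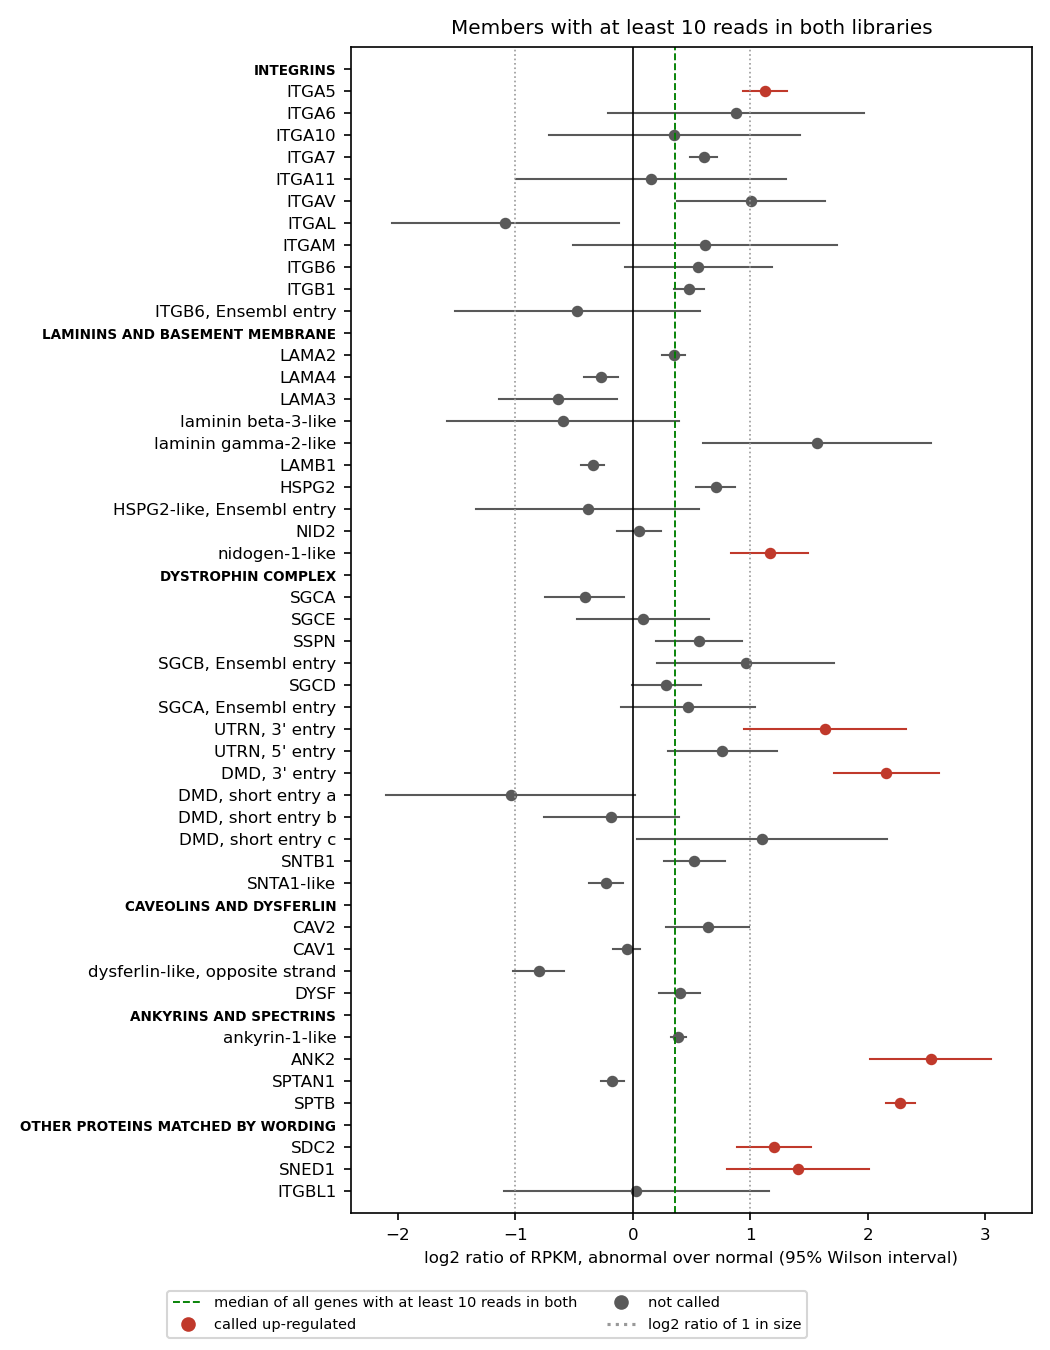
Log2 of the abnormal over the normal RPKM for 46 of the 48 members with at least 10 reads in each library, by family, with the 95% Wilson interval of counting error. The dashed line is the median of all such entries (0.36), the dotted lines mark a log2 ratio of 1 in size, and red points are the 8 called members. Of the 10 laminin and basement membrane entries 7 lie below the dashed line, against 4 of the 11 integrin entries. Entries of these families that the rule missed, LAMB2, LAMC1 and ITGB3 among them, are not shown.

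Of the laminin members with most reads, LAMA2 differed in log2 ratio from LAMB1 and LAMA4 by more than the counting error. LAMB1 and LAMA4 had overlapping intervals. The rule missed the protein names of LAMB2 (1335 and 1098 reads) and LAMC1 (1427 and 806 reads), with log2 ratios of 0.31 and 0.86. LAMA2, the alpha chain of the muscle laminins, had 1871 reads against 1500 (RPKM 72.6 and 57.0), a log2 ratio of 0.35 (0.25 to 0.45), about the median of all entries, which became -0.0098 on scaling by the median, -0.043 with TMM and -0.37 with the correction for length. LAMB1, a beta chain that can pair with it, had 1469 and 1902 reads (RPKM 45.1 and 57.2), a log2 ratio of -0.34 (-0.44 to -0.24), which was called down-regulated at -1.08 once corrected for length. The levels of LAMA2 and LAMB1 were thus about equal in the normal library, with a ratio of 0.997, and stood at 1.61 to 1 in the abnormal library. LAMA4, the alpha chain of laminins around blood vessels, had 698 and 861 reads (RPKM 17.7 and 21.4) and a log2 ratio of -0.27 (-0.42 to -0.13).

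The chains of the laminin of skin and other epithelia had fewer reads. LAMA3 had 51 and 81 reads, with RPKM 0.773 and 1.20 and a log2 ratio of -0.64 (-1.14 to -0.13), down-regulated at -1.03 with TMM and at -1.38 with the correction for length. The laminin beta-3-like entry had 13 and 20 reads and the laminin gamma-2-like entry 32 and 11, a log2 ratio of 1.57 (0.60 to 2.54) with an FDR of 0.00562. These chains assemble into the same protein, and their log2 ratios lay on both sides of 0, with an interval that included 0 for the beta-3-like entry. None of the 7 laminin members was called, since LAMA2, LAMB1 and LAMA4 passed the FDR threshold but not that of size. Of the 6 with at least 10 reads in each library 4 were lower in the abnormal library and 5 below the median of all entries, with a median log2 ratio of -0.31. LAMB2 (0.31) and LAMC1 (0.86), which the rule missed, are not in these counts and were both higher in the abnormal library. LAMB2 lay below the median of all entries and LAMC1 above it.

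Of the proteins that link the laminin sheet to the other parts of the basement membrane, the nidogen-1-like entry was called. It had 235 and 107 reads, RPKM 10.7 and 4.78, a log2 ratio of 1.17 (0.84 to 1.5) with an FDR of 9.72e-12 by the Audic-Claverie test, and lies on chromosome 14 of Sscrofa9 (56440087 to 56558515, plus strand). NID2, the other nidogen, had 456 and 450 reads, a log2 ratio of 0.05 (-0.14 to 0.24), negative under each of the other scalings (-0.34 to -0.20). NID2 was therefore 2.97 times as high per length as the nidogen-1-like entry in the normal library and 1.37 times in the abnormal library. HSPG2, which encodes perlecan, the large heparan sulfate proteoglycan of basement membranes, had 723 and 453 reads, a log2 ratio of 0.71 (0.54 to 0.87). That ratio became 0.012 with the correction for length. A short second HSPG2-like entry had 15 and 20 reads and an interval that included 0.

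The dystrophin gene was divided over 5 entries of the annotation, and these did not give the same ratio. The entry nearest the 3′ end, whose best protein match is Dp140, a short dystrophin made from an internal promoter, had 214 reads against 49 (RPKM 13.4 and 3.0). Its log2 ratio was 2.16 (1.71 to 2.60) with an FDR of 3.28e-25 by the Audic-Claverie test. It lies on chromosome X of Sscrofa9 (26486760 to 26943845, minus strand), and reads covered 38.4% and 30.1% of its 2508 bases. The other 4 entries, of 147 to 315 bases and farther toward the 5′ end, held 85 and 87 reads together, a log2 ratio of -0.00 (-0.43 to 0.43).

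Among these short entries the 2 nearest to the called entry had 10 and 21 reads and 44 and 51 reads, and the 2 farthest had 21 and 10 and 10 and 5. None was called. All 5 entries together gave 299 and 136 reads, a log2 ratio of 1.17 (0.88 to 1.46). The intervals of the 3′ entry and of the other entries together did not overlap, so the value for dystrophin depends on which entry stands for the gene. Per length, the short entries reached RPKM 35.4 and 40.1 in the second of them, above the 3′ entry in both libraries.

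UTRN encodes utrophin, the relative of dystrophin found at the neuromuscular junction and, before birth, along the whole fibre membrane. Its entry at the 3′ end had 67 and 22 reads (RPKM 5.96 and 1.91), a log2 ratio of 1.64 (0.95 to 2.33) with an FDR of 6.92e-06 by the Audic-Claverie test. That entry lies on chromosome 1 of Sscrofa9 (21499955 to 21561156, minus strand). The second, longer entry toward the 5′ end had 98 and 59 reads, a log2 ratio of 0.76 (0.30 to 1.23), and was not called. Its log2 ratio became 0.0051 with the correction for length. For utrophin both entries pointed the same way and their intervals overlapped, and together they gave 165 and 81 reads, a log2 ratio of 1.06 (0.67 to 1.44). DRP2, another member of the family, had 4 and 1 reads.

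**Figure D3:**
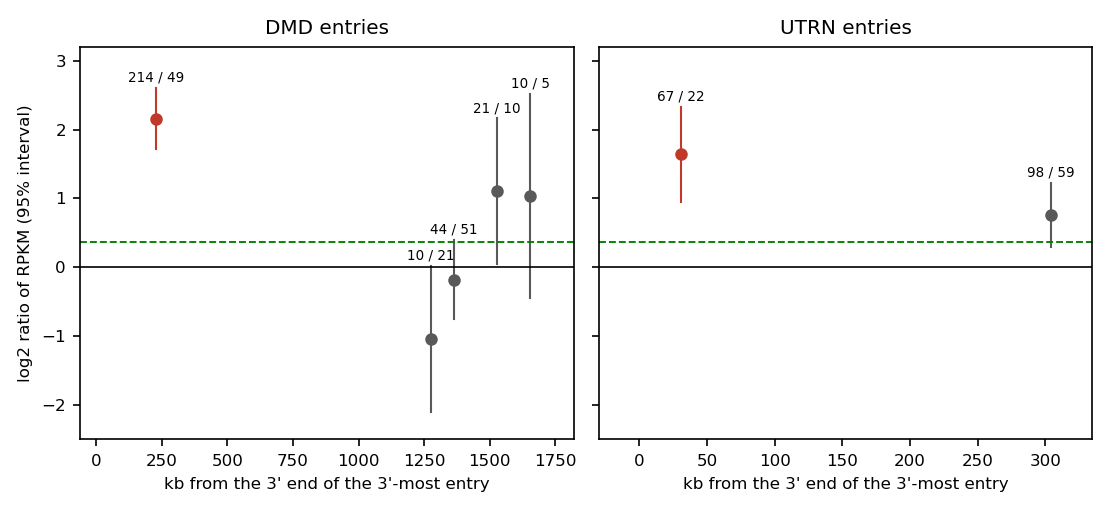
Log2 ratio of RPKM with its 95% interval for each annotated entry of DMD (left) and UTRN (right) against the distance of the entry's midpoint from the 3′ end of the 3′-most entry, in kb. Numbers over the bars are the reads of the abnormal library, then of the normal one, the dashed line is the median of all entries (0.36) and red points are called. In both genes the called entry is the one at the 3′ end, and for DMD the next entries lie below 0.

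The sarcoglycans, the membrane-spanning subunits bound to dystrophin, were called in neither direction. SGCA, the alpha subunit, had log2 ratios of opposite sign in 2 overlapping entries on the same strand, with 120 and 163 reads in the RefSeq entry, a log2 ratio of -0.41 (-0.75 to -0.07), and 57 and 42 in the Ensembl entry, 0.47 (-0.10 to 1.04). The sum of both entries gave -0.18 (-0.47 to 0.11).

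SGCD, the delta subunit, had 203 and 170 reads (RPKM 59.7 and 48.9) and a log2 ratio of 0.29 (-0.01 to 0.58), which became -0.073 and -0.11 on scaling by the median and with TMM. SGCB, the beta subunit, had 40 and 21 reads in its Ensembl entry and 0 and 1 in its RefSeq entry, and SGCE, the epsilon subunit that is also made outside muscle, 51 and 49. SSPN, the small tetraspan protein sarcospan that joins the sarcoglycans, had 145 and 100 reads, a log2 ratio of 0.57 (0.20 to 0.93). Over the 8 entries of sarcoglycans and sarcospan with at least 10 reads in each library the median log2 ratio was 0.38, with 6 higher and 2 lower in the abnormal library and 4 on each side of the median of all entries.

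Of the syntrophins, adaptors that bind signalling proteins to dystrophin, the alpha-1-like entry had 704 and 844 reads (RPKM 62.4 and 73.3) and a log2 ratio of -0.23 (-0.37 to -0.09). SNTB1, the beta-1 form, had 283 and 201 reads, a log2 ratio of 0.52 (0.26 to 0.79). The alpha-1-like entry was 3.62 times as high as SNTB1 in the normal and 2.15 times in the abnormal library. DTNB, a dystrobrevin, had 3 and 6 reads. NOS1, the nitric oxide synthase that alpha-1-syntrophin holds at the fibre membrane, had 22 and 15. Dystroglycan and caveolin-3 were not analysed here.

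CAV1, the main caveolin of endothelium and fat, was one of the members with the smallest difference on the deposited scale. It had 1195 and 1266 reads (RPKM 76.2 and 79.0) and a log2 ratio of -0.05 (-0.17 to 0.06). The log2 ratio became -0.41 on scaling by the median, -0.45 with TMM, -0.30 without mitochondrial transcripts and -0.53 with the correction for length. CAV2, its partner, had 160 and 105 reads, a log2 ratio of 0.64 (0.28 to 0.99), 0.083 with the correction for length. DYSF, which encodes the membrane repair protein dysferlin, had 605 and 468 reads (RPKM 16.2 and 12.2) and a log2 ratio of 0.40 (0.23 to 0.58), -0.31 with the correction for length. A dysferlin-like entry of 710 bases that lies inside DYSF on the opposite strand had 257 and 458 reads, a log2 ratio of -0.80 (-1.02 to -0.58), which was called down-regulated once the libraries were scaled by the median (-1.16), by TMM (-1.20) or without mitochondrial transcripts (-1.05). The counting is not stated to use strand, so it is not known whether reads of 1 entry were counted in the other. The direction of the dysferlin-like entry was opposite to that of DYSF.

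The 2 largest log2 ratios among members with at least 10 reads in each library belonged to the membrane skeleton, to ANK2 and SPTB. ANK2, the ankyrin that anchors membrane proteins in heart and skeletal muscle, had 199 reads against 35 (RPKM 7.51 and 1.29), 5.81 times as high, a log2 ratio of 2.54 (2.02 to 3.05) with an FDR of 1.98e-28 by the Audic-Claverie test. Reads covered 78.1% of its transcript in the abnormal library against 30.3% in the normal one, and the entry lies on chromosome 8 of Sscrofa9 (93935642 to 94260375, minus strand). SPTB, the beta spectrin of red blood cells that skeletal muscle makes as well, had 3198 and 673 reads (RPKM 71.3 and 14.7). It was 4.85 times as high in the abnormal library, a log2 ratio of 2.28 (2.16 to 2.40), and lies on chromosome 7 of Sscrofa9 (97296536 to 97373896, minus strand).

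SPTAN1, the alpha spectrin of cells other than red blood cells, had 1597 and 1841 reads (RPKM 31.8 and 35.8) and a log2 ratio of -0.17 (-0.27 to -0.08). Of the RPKM summed over the spectrin entries, SPTB made up 69.1% in the abnormal library against 29.0% in the normal one, and SPTAN1 30.8% and 70.8%. SPTAN1 was 2.44 times as high as SPTB in the normal library, and SPTB was 2.24 times as high as SPTAN1 in the abnormal library. HBB and HBA, the globins that mark red blood cells, were lower in the abnormal library, with log2 ratios of -0.54 and -0.60, while ALAS2 had 86 and 84 reads and SLC4A1 21 and 5. The 4 red blood cell genes summed to RPKM 1822 and 2723, and none was called.

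The short ankyrin-1-like entry, of 1172 bases, had 4527 and 3533 reads (RPKM 606 and 463) and a log2 ratio of 0.39 (0.33 to 0.45), -0.0047 with TMM. ANK1 is known for a small muscle isoform that ties the sarcoplasmic reticulum to the contractile apparatus. Both ANK1 entries of greater length had far fewer reads, 12 and 1 in one and 3 and 1 in the other, and a further ankyrin-1-like entry had 12 and 6. The first of these had a log2 ratio of 3.62 (1.03 to 6.20) and an FDR of 0.0106. SPTBN5 and a beta spectrin entry of the brain form had at most 3 reads in either library.

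A pair of called members carried a searched word in the protein name without belonging to the families above. SDC2, which encodes the cell surface proteoglycan syndecan-2, had 257 and 114 reads (RPKM 26.2 and 11.4) and a log2 ratio of 1.20 (0.89 to 1.52). SNED1, a secreted matrix protein with a nidogen-type domain, had 78 and 30 reads (RPKM 3.03 and 1.14) and a log2 ratio of 1.41 (0.81 to 2.01). ITGBL1, a secreted protein resembling integrin beta chains, had 12 reads in each library. Among fibroblast genes beside these, 6 of 7 entries, COL1A2, COL3A1 and DCN among them, had log2 ratios from -0.22 to -0.08, and PDGFRA stood at 0.86 with 71 and 40 reads. The summed RPKM of the fibroblast entries was 3005 in the abnormal library against 3358 in the normal one.

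Several endothelial genes stood beside the vessel-related members LAMA4, CAV1 and HSPG2. KDR, VWF and EMCN had log2 ratios of 0.75, 0.76 and 0.92, and PECAM1 and TEK of -0.13 and -0.10, with a summed RPKM of 64.0 in the abnormal library against 52.4 in the normal one. The smooth muscle genes ACTA2, TAGLN and CNN1 summed to 347 and 389, from -0.34 to 0.07 in log2 ratio. The satellite cell genes MYF5 and CDH15 had 23 and 14 and 278 and 470 reads, and the adipocyte genes PLIN1 and LEP at most 2 reads. The fibre genes ACTA1, MYLPF and ATP2A1 had log2 ratios of 0.18, 0.13 and 0.89, and 0 genes of any marker list were called. The part of cell composition in the members' values was not tested.

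How much of a transcript the reads covered did not follow the read numbers alone. Of the 14 members with at least 50 reads in both libraries, more reads in the abnormal one and coverage under 99% in both, 0 had narrower coverage there, with medians of 87.7% in the abnormal library against 73.4% in the normal one. Outside the 99% limit, SNTB1 was covered less in the abnormal library (96.3% and 99.4%), and SPTB and the short ankyrin-1-like entry more. Of the 7 members within the same limits but with fewer reads in the abnormal library, 4 had wider coverage there all the same. LAMB1 was covered to 93.2% and 87.3%, LAMA4 to 63.0% and 57.7%, and SPTAN1 to 93.3% and 86.9%. The whole table showed this too, since 622 of 1334 such entries with fewer reads in the abnormal library (46.6%) were covered more widely in it, against 373 of 2622 (14.2%) in the reverse case.

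**Figure D4:**
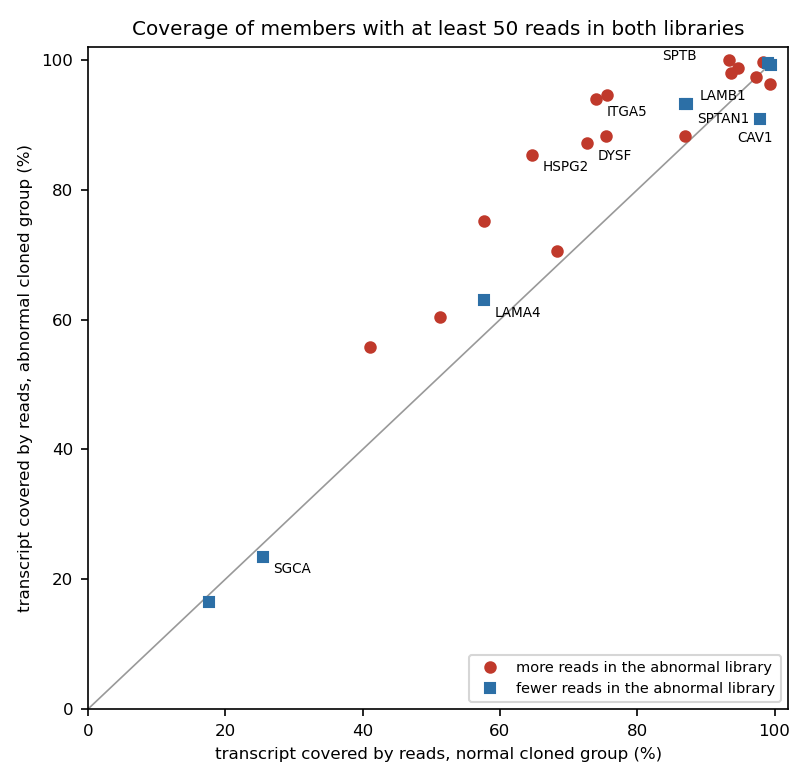
Percent of each transcript covered by reads in the normal (horizontal) and abnormal (vertical) library, for members with at least 50 reads in both. Circles have more and squares fewer reads in the abnormal library, and the line marks equal coverage. LAMB1, LAMA4 and SPTAN1 lie above the line despite their fewer reads.

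The log2 ratio also rose with transcript length over the whole table. With the entries of at least 10 reads in each library split by length into 4 bins of like size, the median from the shortest to the longest bin was 0.12, 0.30, 0.42 and 0.62, and 10.7%, 16.4%, 19.4% and 26.3% were called up-regulated. Most members are long, and 26 of the 48 fell into the longest bin, where their median was 0.54. The part of length and coverage in the called members was not tested. ANK2, SPTB and the 3′ entry of DMD remained called when each log2 ratio was corrected for transcript length. ITGA5, the nidogen-1-like entry, the UTRN entry, SDC2 and SNED1 did not. The correction takes off a running median, so it also removes the shift shared by entries of every length. With it the median of all entries that reached 10 reads in each library was 0.00086. TMM scaling, which has no term for length, kept the same members called. The lost calls therefore cannot be assigned to length.

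Of a list of focal adhesion linkers, the proteins that couple integrins to actin, 13 of 20 genes were matched, in 14 entries, of which 1 was called up-regulated and 0 down-regulated, against 12.0% and 1.45% of all entries. Scaling by the median, TMM and the correction for length each gave 1 and 1. LIMS1, an adaptor of the integrin-linked kinase, and PXN (paxillin) stood at 0.94 and 0.94, and neither was called. At the other end stood LIMS2 with 191 and 316 reads and -0.70 (-0.95 to -0.44), then ZYX at 0.11 and ACTN1 at 0.21. TLN1 and TLN2, the talins that activate integrins, had log2 ratios of 0.33 and 0.53, and the list's median over 12 entries was 0.46.

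Of the enzymes that put the laminin-binding sugar chain on dystroglycan, 16 of 18 genes were matched and 1 of 16 entries was called up-regulated and 0 down-regulated, against the same 12.0% and 1.45% of all entries. LARGE, which extends that chain, had 54 and 22 reads, a log2 ratio of 1.33 (0.62 to 2.03), and was the called gene. Its call was lost under the 3 other scalings and the correction for length, and the list then held 0 up-regulated and, by the median and TMM, 1 down-regulated entry. DPM1 and DPM2, subunits of the enzyme that makes the mannose donor, stood at 1.01 and 0.69, and DPM3, the third subunit of the same enzyme, at -1.0 (-1.73 to -0.27) with 22 and 45 reads. POMT1 and B3GNT1 were lower in the abnormal library as well, at -0.47 and -0.41. The median over 10 entries was 0.51.

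The list of membrane repair and caveola genes was matched for 16 of 20 genes in 17 entries, with 4 called up-regulated and 1 down-regulated. All 17 had at least 10 reads in each library, and of all entries with that many reads 18.2% passed as up-regulated and 2.07% as down-regulated. The median and TMM scalings gave 1 up-regulated and 2 down-regulated. AHNAK, a giant scaffold protein that binds dysferlin, had 692 and 103 reads (RPKM 120 and 17.5) and a log2 ratio of 2.78 (2.48 to 3.08). Its entry is only 903 bases long, so the value may not stand for the whole gene. ANO5, TRIM72 and SDPR, a muscle membrane protein, a repair protein and a caveola coat protein, stood at 1.32, 1.11 and 1.01. PRKCDBP, another caveola coat protein, had 96 and 217 reads, a log2 ratio of -1.15 (-1.49 to -0.80), and ANXA6 was at -0.96 in one entry and -0.05 in the other. The next lowest was MYOF, a relative of dysferlin, at -0.23. PTRF, the coat protein that caveolae depend on, had 621 and 471 reads, a log2 ratio of 0.43. Over the 17 entries the median was 0.28, below that of all entries.

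**Figure D5:**
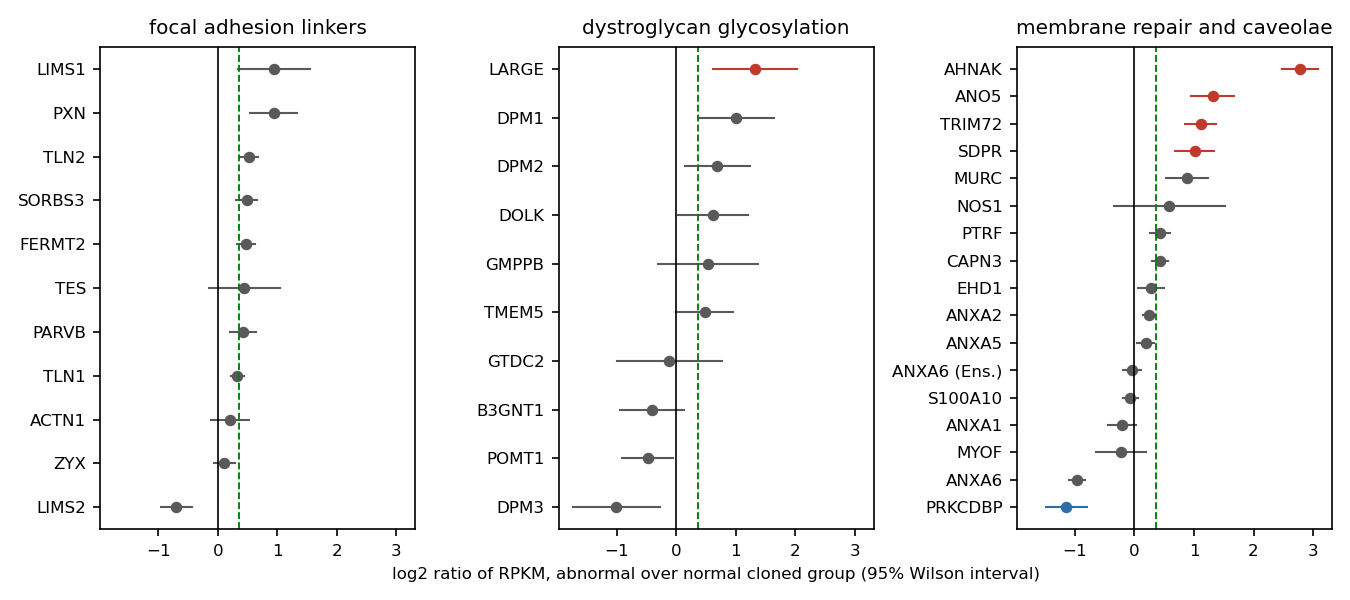
Log2 ratio of RPKM with its 95% Wilson interval for entries of the 3 pathway lists with at least 10 reads in each library. Red points were called up-regulated, the blue point down-regulated, the solid line marks 0 and the dashed line the median of all entries (0.36). LARGE and AHNAK lead their lists, and PRKCDBP is the 1 entry called lower.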

How the data were processed

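Each of the 2 pools of biceps femoris RNA gave 1 mRNA library. The authors filtered the reads and mapped them with SOAPaligner/soap2 to Sscrofa9 with no more than 2 mismatches. They deposited per gene entry the raw count of unique reads, the RPKM and the percent of the transcript covered. Entries absent from a table were taken as 0 reads. The counts summed to 6.38 M and 6.52 M.

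For all 12535 entries the log2 ratio of RPKM was computed, with 0.001 in place of 0, and the reads were compared by the two-sided Audic-Claverie test. Entries with an FDR (Benjamini-Hochberg) up to 0.001 and a log2 ratio of 1 or more in size were called. Intervals are 95% Wilson intervals, and PCR copies were not removed, so they cover counting error only. Symbols came from the files and from RefSeq gene tables, which matched 9003 entries, 45 of the members among them. Coordinates are those of the deposited tables. Of the members, 19 were overlapped by another entry, 10 of them on the same strand. The members and lists were chosen with earlier results of these data known, and the sorting of 3 members as matched by wording only was made after their names were seen. All members could be named, and of each pathway list the 3 largest and 3 smallest log2 ratios among entries with at least 10 reads in each library. Others of these lists and SLC4A1 were named after their values were seen.

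Alternatives were 3 other scalings (median, TMM, totals without mitochondrial transcripts), Fisher's exact test in place of Audic-Claverie, edgeR's exactTest at an assumed variation of 0.4 or 0.2, a pseudocount of 1, a minimum of 10 reads in both libraries and a correction for transcript length (running median of 501 entries). The length correction subtracts this running median from the log2 ratio, so it also removes the shift shared by entries of every length. Summing the entries of a gene was added after seeing the data. The test was tried on simulated data. Tests ran in scipy 1.17.1 (Python 3.11.15) and in edgeR 4.0.16 (R 4.3.3), tables in pandas 2.3.3 and numpy 2.4.6, and plots in matplotlib 3.10.9. The DNA methylation measurements were not used here. Some genes of these families and lists are counted in the totals and not reported here.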

Additional observations from a re-analysis of the deposited data

How the results depend on the processing

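With 1 library per group no replicate could be left out, and a difference between piglets cannot be told apart from one between libraries. No paired analysis was possible because each group has 1 library, a pool. SPTB, ANK2 and the 3′ entry of DMD kept their calls under all alternatives except edgeR's exact test with an assumed variation of 0.4. That test called 0 members and 0 genes of the pathway lists in either direction, and 2 entries up-regulated and 1 down-regulated of the whole table. At a variation of 0.2 it called 3 members and, over the table, 243 entries up-regulated and 20 down-regulated. By family these were 2 ankyrins and spectrins, 1 entry of the dystrophin complex, 0 integrins, 0 laminins and 0 of those matched by wording only. In the lists it called 1 focal adhesion linker, 0 glycosylation genes, and 1 up-regulated and 0 down-regulated repair gene. Fisher's exact test and the minimum of 10 reads changed no count of members or list genes, and the pseudocount of 1 gave 7 members up-regulated, 1 of them matched by wording, and 3 repair genes up-regulated.

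Median scaling called 4 members up-regulated and 1 down-regulated, TMM 3 and 3, totals without mitochondrial transcripts 5 and 1, and the length correction 3 and 3. Over the table these gave 812 and 498, 751 and 548, 987 and 369, and 763 and 461. The members' median became 0.043 with TMM and -0.016 with the length correction. All 4 settings called 0 integrins and 0 laminin and basement membrane entries up-regulated, and 0 of those matched by wording, except 1 without mitochondrial transcripts. The dystrophin complex kept 1 up-regulated entry with TMM and with the length correction. Down-regulated calls were 1 dysferlin-like entry under each setting but the length correction, 1 laminin and 1 entry of the dystrophin complex with TMM, and 1 integrin and 2 laminins with the length correction. In the lists each setting called 0 glycosylation genes up-regulated, 2 repair genes down-regulated and 1 up-regulated (2 without mitochondrial transcripts). Median scaling and TMM called 1 linker and 1 glycosylation gene down-regulated, and the length correction 1 linker.

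The log2 ratio changed sign for NID2 (-0.31 by the median, -0.34 with TMM, -0.20 without mitochondrial transcripts, -0.71 with the length correction), SGCE (-0.27, -0.30 and -0.16 in the first 3), SGCD (-0.073 and -0.11), LAMA2 (-0.0098, -0.043 and, by length, -0.37), the ankyrin-1-like entry (-0.0047 with TMM), and by length ITGA7 (-0.070), ITGB1 (-0.24) and DYSF (-0.31). These sign changes are arithmetic, since each setting takes a shift off the log2 ratio. The shift was 0.36 by the median, 0.39 with TMM and 0.25 without mitochondrial transcripts. In the length correction it was the running median at the length of the entry. Any positive log2 ratio smaller than the shift turns negative. The cause of the shifts was not tested. Summing the entries of DMD gave 1.17.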

Other observations

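The wording used to choose the members missed 9 entries of the same families, because their protein names are written differently, and none of them was called. Values of the abnormal library come first. They were found after the data were seen. LAMC1, the gamma chain that most laminins share, had 1427 reads against 806 (RPKM 46.4 and 25.7), a log2 ratio of 0.86 (0.73 to 0.98). LAMB2, the beta chain of laminins at the neuromuscular junction, had 1335 and 1098 reads, a log2 ratio of 0.31 (0.20 to 0.43). With LAMA2 at 0.35 and LAMB1 at -0.34, the chains of muscle laminins thus spanned both directions. ITGB3, a beta chain of receptors of platelets and other cells, had 911 and 1480 reads (RPKM 31.3 and 49.8). These covered 37.1% and 30.8% of its transcript, and the log2 ratio was -0.67 (-0.79 to -0.55). The direction was opposite to that of ITGAV, an alpha chain that it can pair with and that had far fewer reads.

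ANK3, an ankyrin, had 414 and 254 reads, a log2 ratio of 0.74 (0.51 to 0.96). ITGA1, a collagen-binding alpha chain, had 35 and 12 reads, a log2 ratio of 1.58 (0.65 to 2.51), and ITGB4, the beta chain of the epithelial laminin receptor, 71 and 75 reads. A second ITGA6 entry had 77 and 54 reads, a LAMA2 fragment 12 and 2, and an ITGAV entry on the opposite strand 5 and 0.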
